A study of Homo sapiens with 8 samples.

Results

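Glycolysis splits glucose into pyruvate in the cytosol, and the pentose phosphate pathway branches off at glucose 6-phosphate to supply NADPH and ribose. Pyruvate is then either reduced to lactate and exported, or handed to the mitochondrial pyruvate dehydrogenase complex, a choice set in part by the kinases that switch this complex off. Many steps are shared out between isozymes from separate genes, and tumor cells often make large amounts of lactate even with oxygen present. The 32 genes described here are 4 transporters of glucose and lactate, 17 glycolytic enzymes, 3 bifunctional enzymes that make or remove fructose 2,6-bisphosphate, 5 genes of pyruvate dehydrogenase and its kinases, and 3 pentose phosphate enzymes. They were chosen by name, and all 32 were found among the 69215 genes counted and among the 15931 genes tested.

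The cells were G401, a human rhabdoid kidney tumor line without SMARCB1, a core subunit of the SWI/SNF chromatin remodelling complexes. Derivatives of this line carried a Tet-On construct from which doxycycline (Dox) induced SMARCB1 or, as a control, GFP. Each derivative was treated for 12 h with 0.1 µg/ml Dox or with dimethylsulfoxide (DMSO), and its total RNA was sequenced in 2 libraries per group, SMARCB1 DMSO, SMARCB1 Dox, GFP DMSO and GFP Dox. Plates were pooled for each condition, and the methods describe the experiments as done in duplicate. Whether the 2 libraries of a group came from separate cultures, and whether a derivative is 1 clone, is not stated outright, so that p-values may cover technical spread only. Levels are given as CPM, the count of a gene relative to the TMM-scaled size of its library. For comparisons between genes, they are divided by the length of the merged exons in kilobases (CPM per kb).

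Counts assigned to genes ran from 29632090 to 37597477 per library, and the 32 genes together took 0.652% to 0.779% of them. SMARCB1 itself had 0.343 and 0.637 CPM in SMARCB1 DMSO, 856 and 841 CPM in SMARCB1 Dox and 0 reads in all 4 GFP libraries. VIM, KRT8 and KRT18, which rhabdoid cells make together, averaged 707 to 1280, 339 to 553 and 227 to 414 CPM over the groups. Among markers of other cell types, PTPRC, CD3E, PECAM1, ALB and UMOD had at most 0.0782 CPM in any library, and CDH5 at most 0.45 CPM. The lysosomal gene CD68, a macrophage marker, had 2.68 and 2.58 CPM in the SMARCB1 line without Dox and 1.74 and 1.06 CPM with Dox, as against 3.08 and 2.4 and, with Dox, 2.79 and 2.95 CPM in the GFP line. It fell in SMARCB1 Dox by 0.90 on the log2 scale (adjusted p 0.0222, edgeR quasi-likelihood test with Benjamini-Hochberg adjustment), and its part in the results was not tested. The mitochondrial genome supplied 18.9% to 27.9% of all counts, the largest share in SMARCB1 DMSO replicate 1, and results that rest on this library are given with and without it.

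The promoters of HK2, PGD and PDHB are shown first. These members rose with Dox in the SMARCB1 line in the results that follow and their start in the RefSeq table (GRCh38.p14, 250 bases before to 50 after the gene start) is also the start of the GENCODE canonical transcript. HK2 encodes hexokinase 2, PGD the dehydrogenase of 6-phosphogluconate, and PDHB the beta subunit of pyruvate dehydrogenase. Capitals mark each ACGTG on either strand, the core that hypoxia-inducible factors bind, which also forms part of the E-box CACGTG of MYC and MLX family proteins.
HK2 (chr2:74833877-74834176, plus strand): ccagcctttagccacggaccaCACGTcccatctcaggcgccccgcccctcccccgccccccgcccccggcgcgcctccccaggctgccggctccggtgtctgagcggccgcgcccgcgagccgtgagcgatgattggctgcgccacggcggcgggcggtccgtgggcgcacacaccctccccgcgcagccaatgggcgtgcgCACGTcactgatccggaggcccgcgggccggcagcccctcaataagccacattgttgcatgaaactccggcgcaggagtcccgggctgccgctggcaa
PGD (chr1:10398814-10399113, plus strand): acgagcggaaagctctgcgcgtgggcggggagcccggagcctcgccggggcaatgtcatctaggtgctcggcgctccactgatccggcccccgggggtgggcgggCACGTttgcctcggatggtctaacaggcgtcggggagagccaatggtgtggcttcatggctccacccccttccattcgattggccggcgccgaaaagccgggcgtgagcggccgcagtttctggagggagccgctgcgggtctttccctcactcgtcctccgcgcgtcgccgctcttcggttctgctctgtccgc
PDHB (chr3:58433783-58434082, minus strand): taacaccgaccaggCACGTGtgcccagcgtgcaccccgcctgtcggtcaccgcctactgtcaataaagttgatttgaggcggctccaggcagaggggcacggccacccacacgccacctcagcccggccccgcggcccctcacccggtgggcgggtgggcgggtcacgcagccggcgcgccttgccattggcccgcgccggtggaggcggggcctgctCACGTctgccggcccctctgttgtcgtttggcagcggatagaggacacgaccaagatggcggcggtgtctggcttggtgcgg
The HK2 window held 2 matches, the PGD window 1 and the PDHB window 3, of which a pair lay within a palindromic CACGTG. Of the 29 members in the table, 11 (37.9%) held ACGTG and 4 (13.8%) CACGTG. Over all 27305 promoters of the table the shares were 21.6% and 7.4%, and over those of 15345 protein-coding genes 23.8% and 8.9%. LDHA held 5 matches and PGK1 3, while SLC2A1 held 0. The median GC content was 70.0% in the members and 63.0% in the promoters of protein-coding genes, so that the base composition of the windows differs as well. The table held no entry for SLC2A3, SLC16A1 and PFKFB2. These matches describe the letters of the windows, and binding was not measured.

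Glycolytic mRNAs spanned a 3299-fold range of levels per kb in SMARCB1 DMSO. GAPDH, glyceraldehyde 3-phosphate dehydrogenase, stood far above the rest at 993 ± 54.7 CPM per kb (SD, n = 2). It was followed by LDHA at 156 ± 1.92, the lactate dehydrogenase subunit that favors lactate formation, TPI1 (triosephosphate isomerase) at 105 ± 5.22, ENO1 (enolase 1) at 95.0 ± 4.11 and PKM (pyruvate kinase M) at 82.3 ± 5.61 CPM per kb. PGAM1, phosphoglycerate mutase 1, and SLC2A3, the high-affinity glucose transporter GLUT3, came next with overlapping ranges. At the other end, ENO2, PFKFB4 and ALDOC were all under 1 CPM per kb. Of the 31 pairs of neighbours in this order, 14 overlapped between their libraries in SMARCB1 DMSO, and 9 did in GFP DMSO. The order depends on the length used. With the canonical transcript in place of the merged exons, PGK1 moved from rank 10 to 17 and PDK3 from 20 to 15.

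Gene counts of this kind have limits for some members. Exons of ALDOA and LDHB are overlapped over 42.8% and 33.4% of their length by read-through genes on the same strand, whose shared reads the counting discards, so their levels may be too low by an amount that was not tested. SLC2A3 has a close paralog, SLC2A14, which had at most 0.309 CPM, and reads that map to both are not counted. Processed pseudogenes of the members had few counts, at most 2.2% of the count of TPI1 and 0.415% of GAPDH. PKM counts do not separate the PKM1 and PKM2 transcripts. Several members overlap genes on the opposite strand, PDK2 over 38.6% of its exons, PDHA1 over 19.3%, GAPDH over 17.6%, ALDOA over 13.6%, ALDOC over 11.3%, PDHB over 7.6%, SLC2A1 over 7.5% and PFKM over 7.1%, and others, SLC16A3 and PFKFB2 among them, over smaller parts. The strand setting of the counting was not given in the sources used here, so the counts of all these members are uncertain to that extent.

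**Figure D1:**
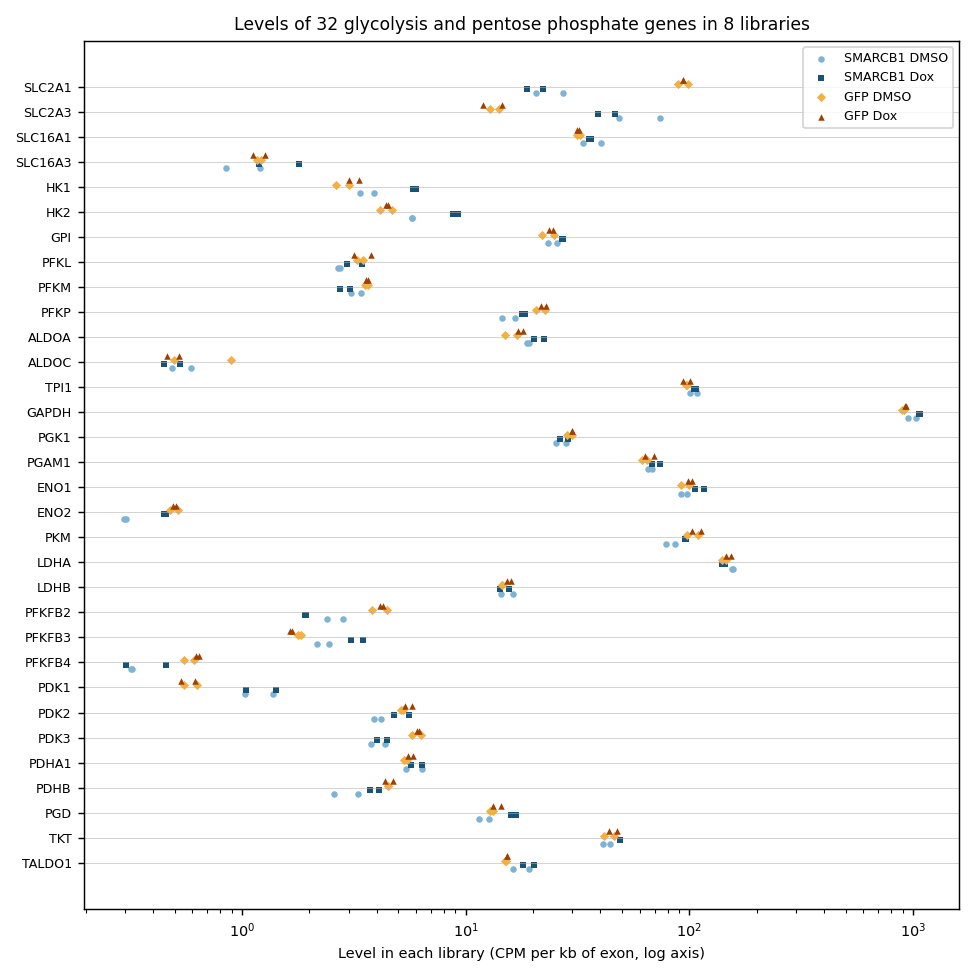
Level of each of the 32 genes in each of the 8 libraries, in CPM per kb of merged exons on a log axis, with color and shape for the 4 groups (2 libraries each). GAPDH lies between 892 and 1071 in all libraries, ENO2 lies under 1, and SLC2A1 and SLC2A3 are the genes whose SMARCB1 and GFP libraries lie furthest apart.

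Isozyme use was uniform across the 8 libraries at most steps. ENO1 made up 99.4% to 99.7% of the counts per kb of ENO1 and ENO2, and ALDOA, aldolase A, 95.0% to 97.8% of those of ALDOA and ALDOC. ENO3, which is not a member, was left out of the enolase share. Its group means ran from 0.429 to 0.885 CPM per kb. LDHA made up 90.3% to 91.6% against LDHB, and the lactate transporter SLC16A1 (MCT1) 95.3% to 97.5% against SLC16A3 (MCT4). Among phosphofructokinases, which commit glucose to glycolysis, the platelet type PFKP held 71.5% to 76.3%, ahead of PFKL and PFKM, whose order depended on the length used. HK2 held 57.4% to 63.1% of the hexokinase counts per kb of merged exons but 42.6% to 48.5% with canonical transcripts, so neither hexokinase can be placed above the other. PDK2 and PDK3, kinases that inhibit pyruvate dehydrogenase, likewise held 43.6% ± 1.98 and 43.6% ± 0.515 in SMARCB1 DMSO by merged exons, while PDK3 held 83.8% ± 0.43 by canonical transcripts. The fold change of a single gene between groups does not depend on this choice of length, but the size of its share does.

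Glucose transporters and PFKFB enzymes were the families whose make-up differed most between groups. SLC2A3 held 71.6% ± 2.12 of the counts per kb of SLC2A1 and SLC2A3 in the SMARCB1 line with DMSO and 67.6% ± 0.144 with Dox, but 12.6% ± 1.6 and, with Dox, 12.4% ± 1.5 in the GFP line (SD, n = 2). PFKFB3, whose kinase activity far exceeds its phosphatase activity, went from 44.0% ± 0.283 of its family in SMARCB1 DMSO to 58.6% ± 1.31 in SMARCB1 Dox, and PFKFB2 from 49.9% ± 0.853 to 34.6% ± 2.77. In the GFP line PFKFB2 held 63.3% ± 2.5 with DMSO and 64.8% ± 0.366 with Dox. PDK1 held 12.9% ± 1.46 of the pyruvate dehydrogenase kinases in SMARCB1 DMSO and 4.99% ± 0.278 in GFP DMSO, or 2.61% ± 0.279 and 0.895% ± 0.0282 by canonical transcripts. An exact permutation test of 2 against 2 libraries cannot reach p under 0.05, so the shares are given without a test.

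**Figure D2:**
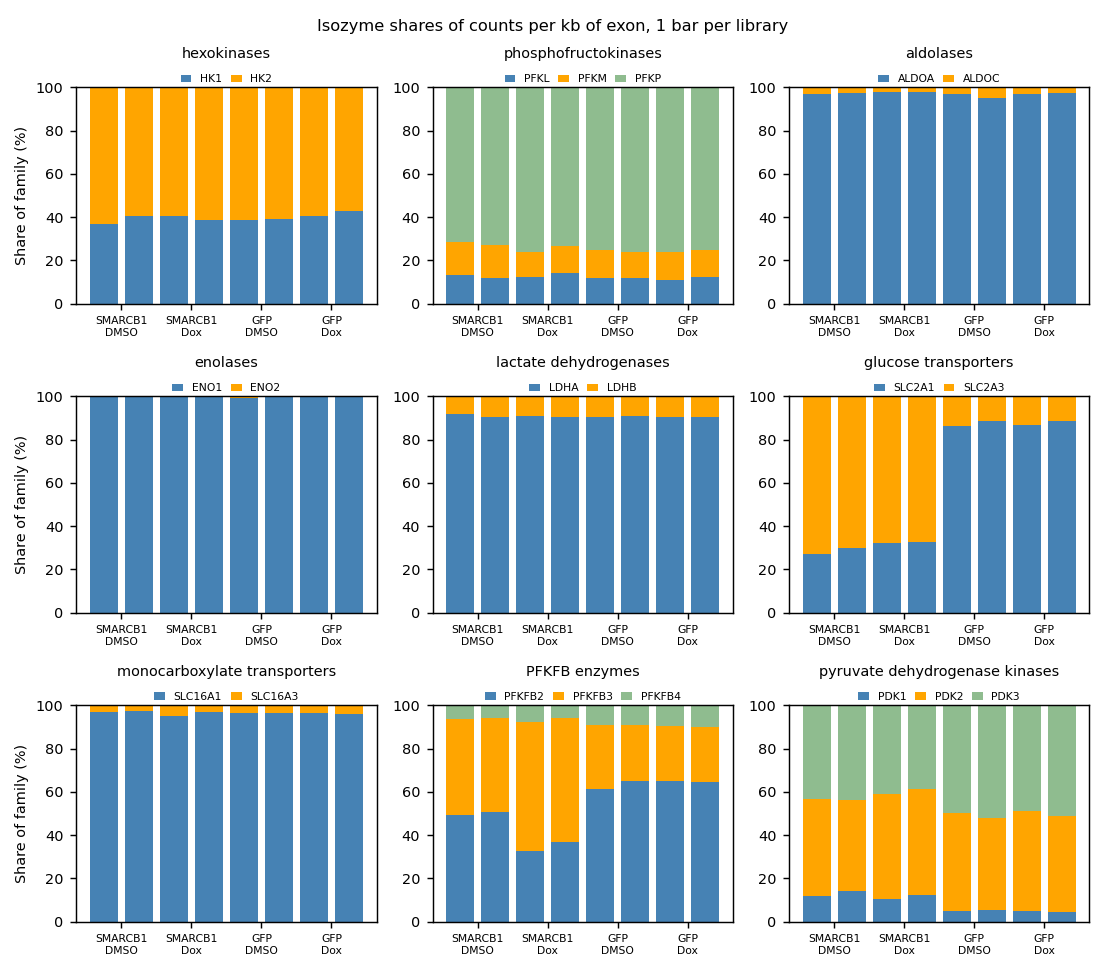
Share of each isozyme in the summed counts per kb of its family (percent), as 1 stacked bar for each of the 8 libraries, 2 per group. SLC2A3 takes 67.5% to 73.1% of SLC2A1 and SLC2A3 together in the SMARCB1 libraries and 11.3% to 13.7% in the GFP libraries. PFKFB3 is the larger part of its family only in SMARCB1 Dox.

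In the SMARCB1 line both hexokinases and 6-phosphogluconate dehydrogenase rose with Dox, and PFKFB3 was called higher and PFKFB2 lower. The last 2 calls depended on single libraries. The comparison of SMARCB1 Dox with SMARCB1 DMSO asked what 12 h of SMARCB1 does to RNA levels. Of the 32 members, 9 (28.1%) were called at an adjusted p under 0.05 by edgeR's quasi-likelihood test with Benjamini-Hochberg adjustment over all tested genes, 7 higher and 2 lower. Over all tested genes 14% were called, 8.33% higher and 5.69% lower. Scaled to library totals instead of TMM, 12 members were called higher and 2 lower, and 1986 and 497 of all genes in place of 1327 and 907. No member changed by more than 2-fold, and the median log2 fold change was 0.12 in the members and 0.00 in all genes tested. In this comparison 24 members had a positive and 8 a negative log2 fold change, whether or not they were called. With Dox in the GFP line these counts were 25 and 7, so a majority of positive signs was not particular to the SMARCB1 line. The median log2 fold change of the members was smaller there, at 0.04. The difference of the Dox effects, SMARCB1 line minus GFP line, was positive in 24 members and negative in 8, with a median of 0.09.

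Hexokinases trap glucose in the cell as glucose 6-phosphate, HK1 as the widespread form and HK2 as the inducible form of muscle, fat and many tumors. HK1 (ENSG00000156515, chr10:69269984-69401884) had 23.1 and 26.8 CPM in the DMSO-treated and 41.1 and 40.1 CPM in the Dox-treated SMARCB1 libraries, compared with 18.0 and 20.7 CPM in DMSO-treated and 20.6 and 22.9 CPM in Dox-treated GFP libraries. HK2 (ENSG00000159399, chr2:74834127-74893359) had 34.0 and 34.2 CPM in the DMSO-treated and 51.8 and 54.5 CPM in the Dox-treated SMARCB1 libraries, compared with 24.6 and 27.8 CPM in DMSO-treated and 26.1 and 26.6 CPM in Dox-treated GFP libraries. For both genes, the SMARCB1 Dox libraries lay above all 6 others. The log2 fold change with Dox in the SMARCB1 line was 0.70 (SE 0.103, adjusted p 6.18e-05) for HK1 and 0.64 (SE 0.0897, adjusted p 3.34e-05) for HK2 by edgeR. Both stayed called under all 11 alternative fits. The HK2 share of the family was 61.4% ± 2.39 before and 60.3% ± 1.3 after, while the summed level rose from 9.11 and 9.67 to 14.7 and 15.0 CPM per kb. In RNA of whole cultures, fewer cells that express a gene and less of its RNA per cell cannot be told apart, here and in all results that follow.

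Fructose 2,6-bisphosphate is the strongest activator of phosphofructokinase, and PFKFB enzymes both make and degrade it. PFKFB3 (ENSG00000170525, chr10:6144934-6254644) had 13.2 and 15.0 CPM in SMARCB1 DMSO and 21.2 and 18.7 in SMARCB1 Dox. In the GFP line it had 11.3 and 10.9 CPM with DMSO and 10.2 and 10.1 with Dox. Its SMARCB1 Dox libraries were the highest of the 8, with a log2 fold change of 0.50 (SE 0.118, adjusted p 0.00614) by edgeR. PFKFB2, the form known from heart, (ENSG00000123836, chr1:207034366-207081024) had 24.5 and 28.8 CPM with DMSO and 19.4 and 19.7 CPM with Dox in the SMARCB1 line, and 38.9 and 45.2 CPM with DMSO and 43.4 and 42.2 CPM with Dox in the GFP line. Here the SMARCB1 Dox libraries were the lowest of the 8, and the log2 fold change was -0.45 (SE 0.104, adjusted p 0.00512). The summed level of the family overlapped between the groups, at 4.89 and 5.62 CPM per kb without and 5.83 and 5.31 with Dox. The change of PFKFB3 became 0.41 (adjusted p 0.0811) without SMARCB1 DMSO replicate 1 and 0.41 (adjusted p 0.082) without SMARCB1 Dox replicate 1, and that of PFKFB2 -0.32 (adjusted p 0.0821) without SMARCB1 DMSO replicate 2 (edgeR). PFKFB4, a form known from testis and hypoxic tumors, had 1.96 and 1.97 CPM in SMARCB1 DMSO and 2.78 and 1.86 in SMARCB1 Dox, a difference of 0.24 (SE 0.235, adjusted p 0.578) that was not called.

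Transporters of glucose and lactate were less settled. SLC2A3 (ENSG00000059804, chr12:7919230-8019007) had 538 and 351 CPM in SMARCB1 DMSO and 337 and 283 in SMARCB1 Dox. It was called lower, with a log2 fold change of -0.52 (SE 0.136, adjusted p 0.0123) by edgeR, but the spread between the SMARCB1 DMSO libraries was as large as the change. Without SMARCB1 DMSO replicate 1, the library with the highest mitochondrial share, the change was -0.18 (adjusted p 0.406), without SMARCB1 Dox replicate 2 it was -0.40 (adjusted p 0.13), and DESeq2 gave an adjusted p of 0.195. SLC16A3, the transporter that exports lactate from glycolytic cells, (ENSG00000141526, chr17:82217934-82261129) had 11.1 and 7.83 CPM in SMARCB1 DMSO and 16.7 and 11.0 in SMARCB1 Dox, so that the groups overlapped. Its log2 fold change was 0.56 (SE 0.174, adjusted p 0.0345) by edgeR. It was 0.32 (adjusted p 0.311) without SMARCB1 DMSO replicate 2, 0.23 (adjusted p 0.54) without SMARCB1 Dox replicate 1, and 0.38 (adjusted p 0.161) once a trend with exon GC content was removed. SLC16A1 had 256 and 213 CPM without and 230.3 and 227 with Dox, a difference of -0.04 (SE 0.086, adjusted p 0.847) that was not called. SLC2A1, the widespread glucose transporter GLUT1, had 180.4 and 136 CPM without and 147 and 125 with Dox. Its log2 difference of -0.22 (SE 0.109, adjusted p 0.204), with overlapping groups, was not called, except without SMARCB1 DMSO replicate 2, where it was -0.41 (adjusted p 0.00868).

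PGD, the second oxidative enzyme of the pentose phosphate pathway and a source of NADPH, rose in the SMARCB1 line. PGD (ENSG00000142657, chr1:10398592-10420511) had 38.3 and 42.3 CPM in the SMARCB1 line without Dox and 53.1 and 56.1 CPM with Dox, as against 43.0 and 44.1 and, with Dox, 44.2 and 48.0 CPM in the GFP line. The SMARCB1 Dox libraries lay above all 6 others, and the log2 fold change of 0.44 (SE 0.0875, adjusted p 0.00143) stayed called under all 11 alternatives (edgeR). The other members of the pathway belong to its non-oxidative branch, which exchanges carbon units between sugar phosphates. TKT, transketolase, had 389 and 418 CPM without and 463 and 466 with Dox, a difference of 0.20 (SE 0.0833, adjusted p 0.116) that was not called. Scaled to library totals, it was called by edgeR, at 0.29 (adjusted p 0.0296). TALDO1, transaldolase, had 47.2 and 56.1 CPM without and 58.5 and 52.6 with Dox, which overlapped, with a difference of 0.10 (SE 0.0918, adjusted p 0.53).

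At the entry of pyruvate into mitochondria, PDHB and PDK2 were called higher. PDHB (ENSG00000168291, chr3:58427630-58433857) had 12.1 and 15.6 CPM in the DMSO-treated and 17.6 and 19.3 CPM in the Dox-treated SMARCB1 libraries, compared with 21.1 and 21.3 CPM in DMSO-treated and 22.2 and 20.6 CPM in Dox-treated GFP libraries. PDK2 (ENSG00000005882, chr17:50094737-50112152) had 21.4 and 22.9 CPM with DMSO and 26.2 and 30.6 CPM with Dox in the SMARCB1 line, and 28.6 and 28.1 CPM with DMSO and 31.4 and 29.2 CPM with Dox in the GFP line. For both, the SMARCB1 libraries without Dox were the lowest. With Dox they lay above them, still below all GFP libraries for PDHB and within the range of the GFP libraries or below it for PDK2. The log2 fold changes were 0.41 (SE 0.121, adjusted p 0.0269) for PDHB and 0.35 (SE 0.101, adjusted p 0.0208) for PDK2 by edgeR. Without SMARCB1 DMSO replicate 1 they were 0.24 (adjusted p 0.33) and 0.31 (adjusted p 0.14), and without SMARCB1 Dox replicate 2 0.34 (adjusted p 0.145) and 0.24 (adjusted p 0.207). For PDK2 the removal of the GC trend gave 0.27 (adjusted p 0.108). PDHA1, PDK1 and PDK3 had log2 fold changes of 0.03, 0.03 and 0.06, with overlapping libraries, and were not called.

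The lower part of glycolysis, from aldolase to lactate, showed small differences. None of its 11 members, from ALDOA to LDHB, was called in the main fit, and their log2 fold changes ran from -0.14 (ALDOC) to 0.59 (ENO2). ENO2, the neuronal enolase, rested on few reads, with 1.3 and 1.27 CPM without and 1.97 and 1.92 with Dox, and its difference had an adjusted p of 0.146 by edgeR. GAPDH had 2287 and 2472 CPM in SMARCB1 DMSO and 2567 and 2552 in SMARCB1 Dox, a difference of 0.10 (SE 0.0828, adjusted p 0.475). LDHA had 949.7 and 933 CPM in the SMARCB1 line without Dox and 840.4 and 872 CPM with Dox, as against 846 and 877 and, with Dox, 930.1 and 884 CPM in the GFP line, lower in both Dox libraries of the SMARCB1 line, with a difference of -0.14 (SE 0.0796, adjusted p 0.301). ENO1 had 480.4 and 511 CPM with DMSO and 604 and 554 CPM with Dox in the SMARCB1 line, and 481 and 518 CPM with DMSO and 513 and 535 CPM with Dox in the GFP line. PKM had 671 and 739 CPM in the DMSO-treated and 827 and 820.1 CPM in the Dox-treated SMARCB1 libraries, compared with 836 and 936 CPM in DMSO-treated and 884 and 969 CPM in Dox-treated GFP libraries. In the SMARCB1 line, the Dox libraries of both genes lay above those without Dox. Their log2 differences of 0.22 (SE 0.0824, adjusted p 0.0762) and 0.22 (SE 0.087, adjusted p 0.0947) missed the threshold in the main edgeR fit. They passed it in DESeq2, at adjusted p 0.029 and 0.0482. They also passed in edgeR with library totals (adjusted p 0.018 and 0.0237), no filter (0.0423 and 0.0327) and a replicate block (0.0227 and 0.0215). With the block and the GC trend removed they passed (0.0334 and 0.0279), but not with the GC trend removed alone. Of the upper steps, GPI, PFKL, PFKM and PFKP differed by 0.14, 0.23, -0.16 and 0.21, and none was called in the main fit. Scaled to library totals, edgeR called PFKL, at 0.32 (adjusted p 0.0434), and PFKP, at 0.30 (adjusted p 0.0297).

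Exon GC content and the mitochondrial share of the libraries moved with this comparison. Over the 15931 genes, the log2 fold change with Dox in the SMARCB1 line had a Spearman correlation of 0.25 with exon GC content, against -0.01 in the GFP line. The points are genes that share libraries and are not independent. Removing this trend left 7 members called, 5 higher and 2 lower, with HK1, HK2 and PGD among them. Without SMARCB1 DMSO replicate 1, which had the highest mitochondrial share, 5 members were called, 4 higher and 1 lower. What part these features play in the results was not tested further.

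**Figure D3:**
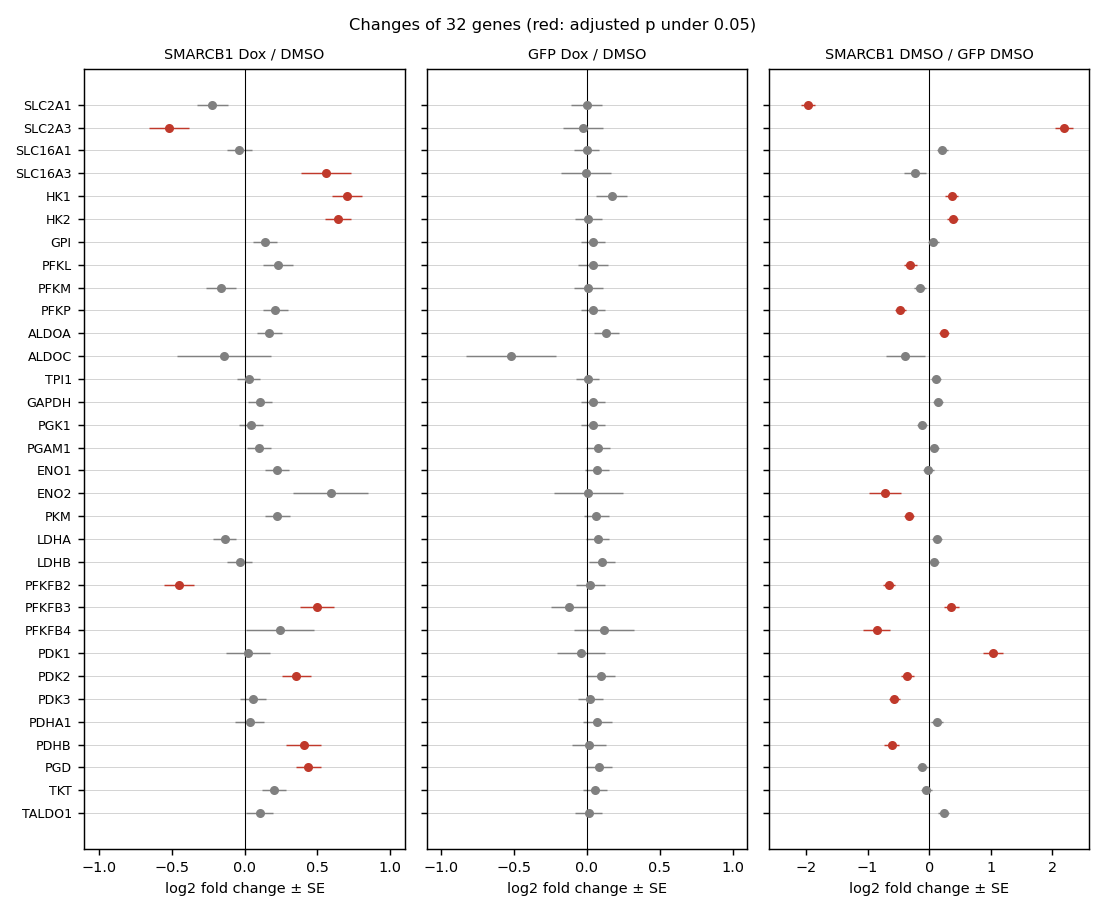
Log2 fold change ± SE of the 32 genes for the effect of Dox in SMARCB1 cells (left), its effect in GFP cells (middle), and the difference between the derivatives given DMSO, SMARCB1 minus GFP (right) (edgeR fit of 8 libraries), with genes at an adjusted p under 0.05 in red. The panels show 9, 0 and 16 red points, and SLC2A1 and SLC2A3 reach -1.97 and 2.18 in the third panel, whose axis is wider.

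The GFP line was used to see what Dox does without SMARCB1. None of the 32 members was called in GFP Dox against GFP DMSO by edgeR or DESeq2, as for all genes tested (0% called), and 0 members had an unadjusted p under 0.05. At that level 266 of all 15931 genes passed. The libraries of a group differed more in the SMARCB1 line. Their squared difference relative to counting noise averaged 20.4 per gene in SMARCB1 DMSO and 12.4 in SMARCB1 Dox. It averaged 7.65 in GFP DMSO and 8.99 in GFP Dox. All groups shared 1 estimate of the spread, so p-values may be too large in the GFP line and too small in the SMARCB1 line. The log2 fold changes ran from -0.52 (ALDOC) to 0.17 (HK1), with a median of 0.04. ALDOC, the brain form of aldolase, rested on few reads, with 1.3 and 2.34 CPM in the GFP line without Dox and 1.36 and 1.2 with it. Of the members that moved in the SMARCB1 line, HK2 differed here by 0.01 (SE 0.0926), PGD by 0.08 (SE 0.0872), PFKFB2 by 0.02 (SE 0.0979) and PFKFB3 by -0.12 (SE 0.124).

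Whether Dox acted differently in the SMARCB1 line and the GFP line was tested directly. The difference of the log2 fold changes was called for 3 members (9.38%), all more positive in the SMARCB1 line, against 4.71% of all genes tested, 3.07% of them more positive. It was 0.63 (SE 0.129, adjusted p 0.00479) for HK2, 0.62 (SE 0.172, adjusted p 0.038) for PFKFB3 and 0.53 (SE 0.148, adjusted p 0.0404) for HK1 by edgeR. This comparison shares its SMARCB1 libraries with the one before. The call of HK2 was lost in 1 of 15 alternatives, without GFP DMSO replicate 2, where the difference was 0.55 (adjusted p 0.0518). That of HK1 was lost without each of SMARCB1 DMSO replicate 1, both SMARCB1 Dox libraries, GFP DMSO replicate 2 and both GFP Dox libraries, with values from 0.43 to 0.61, and with DESeq2 (adjusted p 0.0501). That of PFKFB3 was lost without each of SMARCB1 DMSO replicate 1, SMARCB1 Dox replicate 1 and all 4 GFP libraries, with values from 0.53 to 0.65, with the GC trend removed, at 0.56 (adjusted p 0.0565), and with DESeq2 (adjusted p 0.0566). The differences of PFKFB2 and PGD, -0.47 (SE 0.143, adjusted p 0.0634) and 0.35 (SE 0.123, adjusted p 0.12), were not called. Without SMARCB1 DMSO replicate 1 that of PFKFB2 was -0.59 (adjusted p 0.0218). Whether replicate numbers pair cultures is not stated. With a replicate block the differences were -0.47 (adjusted p 0.0127) for PFKFB2 and 0.36 (adjusted p 0.0304) for PGD, and with the block and the GC trend removed -0.40 (adjusted p 0.0398) and 0.34 (adjusted p 0.0307). The difference of SLC2A3, -0.49 (SE 0.194, adjusted p 0.187), was not called by edgeR in the main fit. It was called with no expression filter, at -0.49 (adjusted p 0.00258), and with the block, at -0.47 (adjusted p 0.00779). With the block and the GC trend removed it was called at -0.41 (adjusted p 0.0347). Without SMARCB1 DMSO replicate 2 the SLC2A3 difference was -0.77, so its size depended on single libraries.

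**Figure D4:**
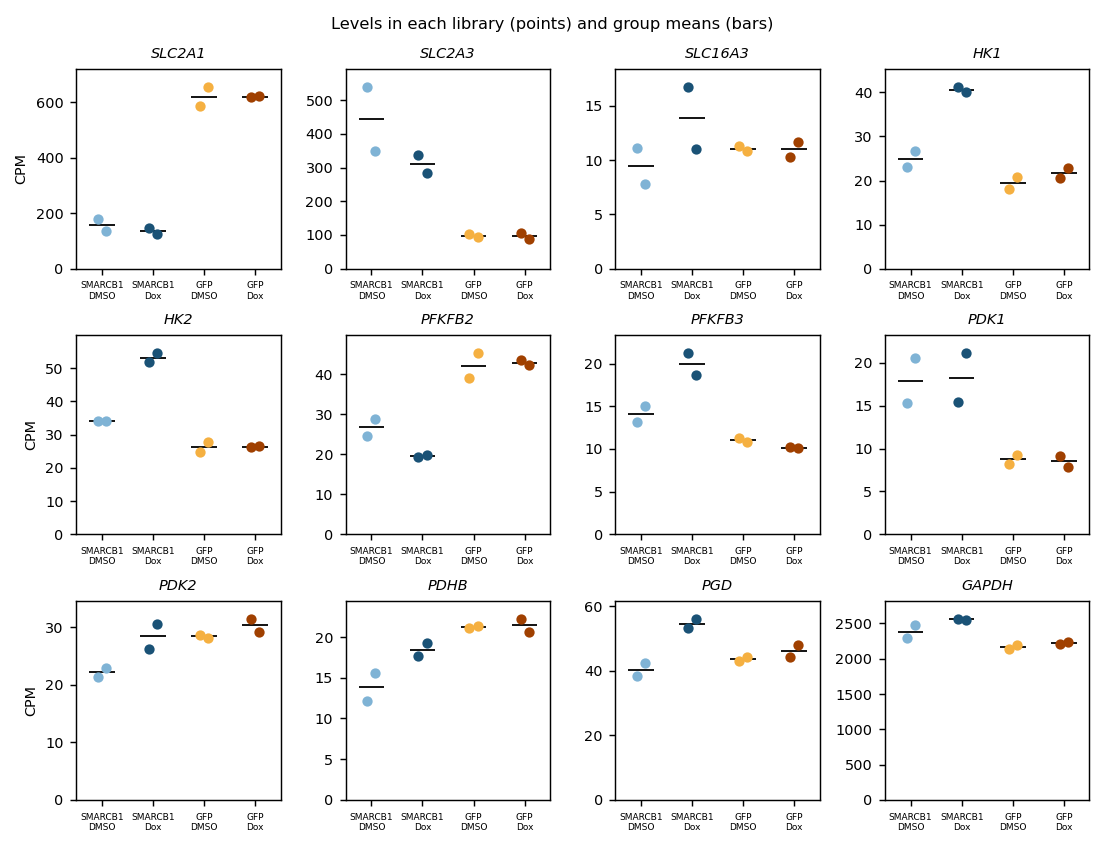
CPM in each library (points) and group means (horizontal lines) of the 9 members called with Dox in the SMARCB1 line, of SLC2A1 and PDK1, which differed over 2-fold between the lines, and of GAPDH, all axes starting at 0. HK1, HK2, PFKFB3 and PGD are highest in both SMARCB1 Dox libraries, and SLC2A1 and SLC2A3 separate the SMARCB1 from the GFP libraries.

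The derivatives differed from each other without Dox, and among the members most of all in the glucose transporters. Between SMARCB1 DMSO and GFP DMSO, 16 of 32 members (50%) were called by edgeR, 6 higher and 10 lower in SMARCB1 DMSO, against 32% of all genes tested (16.3% higher, 15.7% lower). With library totals 3 members were higher and 10 lower, and 1732 and 3658 of all genes in place of 2600 and 2505. Derivative and construct cannot be told apart in this comparison, which also shares the SMARCB1 DMSO libraries with the Dox comparison. SLC2A1 had 180.4 and 136 CPM in SMARCB1 DMSO and 588 and 654 in GFP DMSO, with Dox libraries at 147 and 125 CPM in the SMARCB1 line and 618 and 622 in the GFP line. SLC2A3 went the opposite way, with 538 and 351 CPM in SMARCB1 DMSO and 103 and 92.9 in GFP DMSO, and with Dox 337 and 283 in the SMARCB1 line and 105 and 86.9 in the GFP line. In both genes the libraries of the derivatives were far apart, and the log2 differences were -1.97 (SE 0.111, adjusted p 2.85e-12) and 2.18 (SE 0.142, adjusted p 3.74e-11). Their summed level was 101 and 69.0 CPM per kb with DMSO and 68.7 and 57.9 with Dox in the SMARCB1 line, and 103 and 112 with DMSO and 108 and 106 with Dox in the GFP line. SMARCB1 DMSO replicate 1 thus came close to the GFP libraries in this sum, whereas the other SMARCB1 libraries stayed below.

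PDK1, the hypoxia-inducible pyruvate dehydrogenase kinase, was the other member with a difference over 2-fold. It (ENSG00000152256, chr2:172555373-172608669) had 15.3 and 20.5 CPM with DMSO and 15.4 and 21.1 CPM with Dox in the SMARCB1 line, and 8.2 and 9.3 CPM with DMSO and 9.16 and 7.9 CPM with Dox in the GFP line. All 4 SMARCB1 libraries lay above all 4 GFP libraries, and the log2 difference without Dox was 1.03 (SE 0.159, adjusted p 2.34e-05). The remaining kinases and PDHB were lower in SMARCB1 DMSO, with log2 differences of -0.61 (SE 0.12, adjusted p 0.000404) for PDHB, -0.57 (SE 0.0885, adjusted p 2.73e-05) for PDK3 and -0.35 (SE 0.101, adjusted p 0.0095) for PDK2. PDK2 lost its call without SMARCB1 DMSO replicate 1, at -0.31 (adjusted p 0.0729), and without GFP DMSO replicate 1, at -0.34 (adjusted p 0.0576).

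In the glycolytic enzymes and PFKFB genes, the called differences between the derivatives were all under 2-fold. PFKFB2, PFKFB4 and PFKP were lower in SMARCB1 DMSO, with log2 differences of -0.66 (SE 0.101, adjusted p 2.18e-05), -0.85 (SE 0.225, adjusted p 0.00527) and -0.47 (SE 0.0847, adjusted p 0.000156) (edgeR). PFKP had 113 and 129.9 CPM in the SMARCB1 line without Dox and 143 and 138 CPM with Dox, as against 161 and 176 and, with Dox, 169 and 177 CPM in the GFP line, with the SMARCB1 libraries below all GFP libraries. The calls of these 3 genes, like those of SLC2A1, SLC2A3, PDK1, PDK3 and PDHB, held under all 11 alternatives. HK2 was higher by 0.38 (SE 0.0919, adjusted p 0.00281) and HK1 by 0.37 (SE 0.106, adjusted p 0.0108). Without GFP DMSO replicate 1 these values were 0.29 (adjusted p 0.0747) and 0.27 (adjusted p 0.154), and HK1 was also lost without SMARCB1 DMSO replicate 2, at 0.25 (adjusted p 0.146). PFKFB3 (0.36, adjusted p 0.0301) lost its call without SMARCB1 DMSO replicate 2 and without either GFP DMSO library, with values from 0.26 to 0.38. The call was also lost in DESeq2 (adjusted p 0.0764), in edgeR with no filter (adjusted p 0.0541) and with library totals, at 0.24 (adjusted p 0.172). With library totals HK1 was likewise not called, at 0.25 (adjusted p 0.0923). PKM was lower, with a log2 difference of -0.33 (SE 0.087, adjusted p 0.00543) that was -0.26 (adjusted p 0.0537) without SMARCB1 DMSO replicate 1 and -0.25 (adjusted p 0.119) without GFP DMSO replicate 2. The calls of PFKL (-0.31, adjusted p 0.0279) and ENO2 (-0.72, adjusted p 0.0361) were lost without any 1 of the 4 DMSO libraries, at -0.27 and -0.66 at the weakest. DESeq2 did not call ENO2 either (adjusted p 0.122). ALDOA had 71.7 and 73.2 CPM with DMSO and 85.6 and 77.3 CPM with Dox in the SMARCB1 line, and 57.7 and 65.2 CPM with DMSO and 65.4 and 69.4 CPM with Dox in the GFP line. Its difference (0.24, adjusted p 0.0394) lost its call without any 1 DMSO library but GFP DMSO replicate 2, falling to 0.15 without GFP DMSO replicate 1. The call was also lost in DESeq2 (adjusted p 0.0673) and in edgeR with no filter (adjusted p 0.0686). Scaling to library totals gave it 0.12 (adjusted p 0.362). That scaling moved the median log2 difference of all genes from 0.01 to -0.10. The other 16 members were not called in the main fit, with log2 differences from -0.39 (ALDOC) to 0.24 (TALDO1). The TALDO1 difference was larger, at 0.35, without SMARCB1 DMSO replicate 1, the library with the highest mitochondrial share. With a replicate block edgeR called it, at 0.24 (adjusted p 0.0232), and with the block and the GC trend removed at 0.22 (adjusted p 0.0295).

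GAPDH was also measured by quantitative PCR in the study, and its primers are shown because it is the most abundant member.
GAPDH forward: ccacccatggcaaattcc
GAPDH reverse: tgacaagcttcccgttctca
On GRCh38 the forward primer matches chr12:6536706-6536723 and the reverse primer, on the opposite strand, chr12:6536740-6536759. Both sites lie in exon 4 of the canonical transcript and bound a product of 54 bases. Both sites also occur in the processed pseudogenes GAPDHP38 and GAPDHP58. By RNA sequencing GAPDH had 2287 and 2472 CPM in the SMARCB1 line without Dox and 2567 and 2552 CPM with Dox, as against 2137 and 2194 and, with Dox, 2210.5 and 2242 CPM in the GFP line, with every SMARCB1 library above every GFP library. No comparison called it.

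Other genes of the same routes were counted over whole lists of the pathway, from which those called with Dox that changed most are named. PDP1 and PDP2, the phosphatases that switch pyruvate dehydrogenase on, moved in opposite directions with Dox in the SMARCB1 line. PDP1 had 7.58 and 7.95 CPM in the DMSO-treated and 19.4 and 20.4 CPM in the Dox-treated SMARCB1 libraries, compared with 5.92 and 5.94 CPM in DMSO-treated and 5.98 and 5.11 CPM in Dox-treated GFP libraries. PDP2 had 86.4 and 77.2 CPM in the DMSO-treated and 56.7 and 55.6 CPM in the Dox-treated SMARCB1 libraries, compared with 78.6 and 84.3 CPM in DMSO-treated and 86.3 and 84.7 CPM in Dox-treated GFP libraries. The SMARCB1 Dox libraries were apart from all 6 others in both genes, above them for PDP1 and below them for PDP2. The log2 fold changes were 1.36 (SE 0.13, adjusted p 3.35e-07) and -0.54 (SE 0.0829, adjusted p 9.64e-05), and the differences from the GFP line 1.46 (SE 0.193, adjusted p 7.31e-05) and -0.61 (SE 0.116, adjusted p 0.00286) (edgeR). Both were called under every alternative fit of both comparisons. They were 2 of 9 tested genes (22.2%) of this list of 10 that were called with Dox, against 14% of all genes tested. The others of the list, the remaining subunits of the complex among them, did not pass.

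MPC1, a subunit of the carrier that brings pyruvate into mitochondria, was not called with Dox but differed between the derivatives. It is named after its values were seen. It had 32.8 and 29.9 CPM in SMARCB1 DMSO and 109 and 103 in GFP DMSO, and with Dox 32.1 and 33.9 in the SMARCB1 line and 113 and 102 in the GFP line. All SMARCB1 libraries were far below all GFP libraries, and the log2 difference was -1.75 (SE 0.0881, adjusted p 3.82e-13) by edgeR. MPC2, the other subunit of the carrier, went the opposite way. It was higher in SMARCB1 DMSO, with a log2 difference of 0.57 that was called under all 11 alternatives.

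In the remaining lists of the pathway, 10% to 28.6% of tested genes were called with Dox in the SMARCB1 line, against 14% of all genes tested. The median log2 fold changes of these lists were 0.09 in other glycolysis genes, 0.29 in other transporters, -0.11 in other pentose phosphate genes and 0.16 in the serine and glycerol branches. Of 20 other glycolysis genes, 10 were tested and 1 was called, BPGM, which makes 2,3-bisphosphoglycerate. It had 6.79 and 5.94 CPM without and 4.83 and 3.61 with Dox, a log2 fold change of -0.59 (SE 0.171, adjusted p 0.0227) by edgeR that was -0.40 (adjusted p 0.205) without SMARCB1 Dox replicate 2 and -0.49 (adjusted p 0.15) without SMARCB1 DMSO replicate 1. Of 14 other transporters, 7 were tested and SLC2A6, a lysosomal member of the glucose transporter family, was called higher, with 10.4 and 8.98 CPM without and 17.2 and 13.7 with Dox, a log2 fold change of 0.68 (SE 0.142, adjusted p 0.00217) that was 0.51 (adjusted p 0.0611) without SMARCB1 Dox replicate 1. Of 8 other pentose phosphate genes, 6 were tested and PGLS, which follows the entry step of the pathway, was called higher by 0.37 (SE 0.119, adjusted p 0.041). This call was lost without either SMARCB1 DMSO library and without SMARCB1 Dox replicate 1, with values from 0.30 to 0.43. It was also lost with the GC trend removed, at 0.24 (adjusted p 0.172), with block and GC removal together, at 0.25 (adjusted p 0.104), and with DESeq2 (adjusted p 0.0691). In the serine and glycerol 3-phosphate branches 2 of 7 tested genes were called higher, the mitochondrial serine hydroxymethyltransferase SHMT2 by 0.38 (SE 0.0895, adjusted p 0.00545) and the mitochondrial glycerol 3-phosphate dehydrogenase GPD2 by 0.36 (SE 0.089, adjusted p 0.00888). SHMT2 became 0.31 (adjusted p 0.0664) without SMARCB1 DMSO replicate 1, and GPD2 0.25 (adjusted p 0.122) without SMARCB1 DMSO replicate 2.

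Regulators of these genes were called in both directions. Of 8 tested regulators of 9, 5 (62.5%) were called with Dox in the SMARCB1 line, 3 higher and 2 lower, against 14% of all genes tested (8.33% higher, 5.69% lower). The median log2 fold change of the list was -0.04. MYC, an activator of many glycolytic genes, fell from 148 and 137 to 109.9 and 96.7 CPM, by 0.46 on the log2 scale (adjusted p 0.000631, edgeR), and was called under all 11 alternatives. EPAS1, which encodes the hypoxia-inducible factor HIF-2 alpha, rose from 10.6 and 7.31 to 20.0 and 12.1 CPM, by 0.85 (SE 0.195, adjusted p 0.00482). That rise was 0.60 (adjusted p 0.0694) without SMARCB1 DMSO replicate 2 and 0.44 (adjusted p 0.212) without SMARCB1 Dox replicate 1. Its partner ARNT differed by -0.32 (SE 0.0886, adjusted p 0.0162), by -0.21 (adjusted p 0.229) without SMARCB1 Dox replicate 1 and -0.28 (adjusted p 0.0957) without SMARCB1 DMSO replicate 2. TXNIP, which restrains glucose uptake, differed by 0.44 (SE 0.143, adjusted p 0.0445), a call that was lost without every SMARCB1 library but DMSO replicate 2 and in DESeq2, with values from 0.29 to 0.50. HIF1A, the fifth called regulator and named after its values were seen, differed by 0.26 (SE 0.08, adjusted p 0.0315), a call lost without every SMARCB1 library but DMSO replicate 2, with values from 0.23 to 0.29. Between the derivatives TXNIP differed by 5.63 (SE 0.222, adjusted p 4.9e-15), with 38.1 and 47.0 CPM in SMARCB1 DMSO and 0.355 and 1.3 in GFP DMSO.

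**Figure D5:**
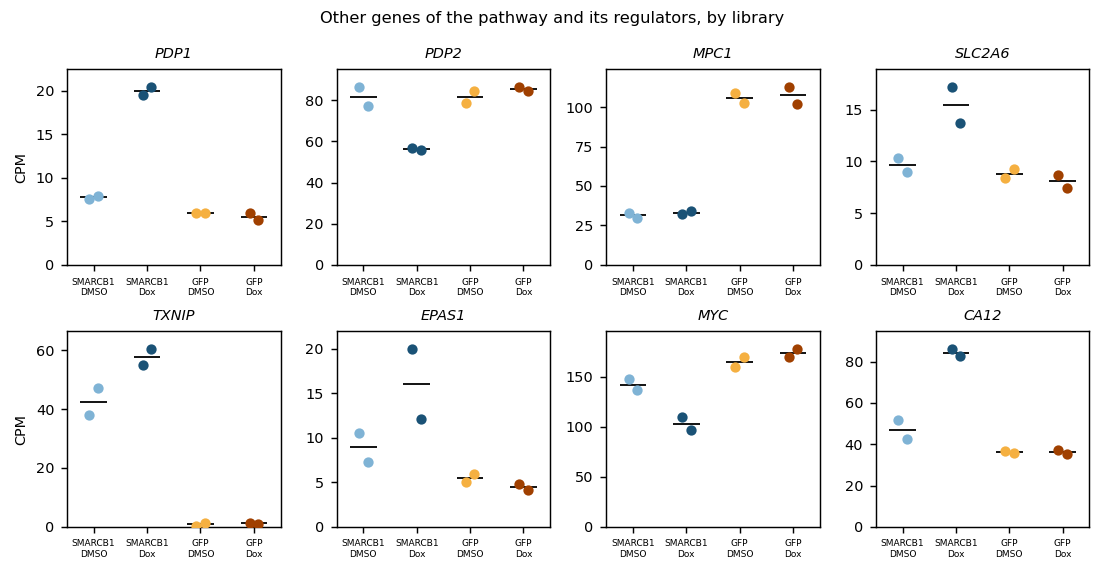
CPM in each library (points) and group means (horizontal lines) of 8 genes of the pathway and its regulators that are not members, all axes starting at 0. PDP1 and CA12 are highest and PDP2 and MYC lowest in both SMARCB1 Dox libraries, while MPC1 and TXNIP separate the SMARCB1 from the GFP libraries.

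Genes outside glycolysis that hypoxia induces were called in 5 of 16 tested cases (31.2%), 4 higher and 1 lower, against 14% of all genes tested (8.33% higher, 5.69% lower). The median log2 fold change of the list was 0.08. CA12, a membrane carbonic anhydrase, had 51.7 and 42.4 CPM without and 86.1 and 82.5 with Dox, a log2 fold change of 0.84 (SE 0.0922, adjusted p 1.73e-06) by edgeR. BHLHE40, a transcriptional repressor, rose by 0.67 (SE 0.111, adjusted p 0.000229) and BNIP3L, a receptor for removal of mitochondria, by 0.42 (SE 0.0832, adjusted p 0.00133). These 3 calls held under all 11 alternatives. BHLHE40 was far lower in SMARCB1 DMSO than in GFP DMSO, with a log2 difference of -3.08 that was called under all 11 alternatives. EGLN1, an oxygen sensor that marks hypoxia-inducible factors for degradation, differed by 0.37 (SE 0.121, adjusted p 0.0435), and its call was lost without either SMARCB1 DMSO library and without SMARCB1 Dox replicate 1, with values from 0.26 to 0.40. ERO1A, which forms disulfides in the endoplasmic reticulum and is named after its values were seen, was lower, with a log2 fold change of -0.36 (SE 0.092, adjusted p 0.011) that was -0.20 (adjusted p 0.215) without SMARCB1 DMSO replicate 1 and -0.31 (adjusted p 0.101) without SMARCB1 Dox replicate 1. CA9 had 0 reads, and EGLN3 and NDRG1 at most 0.287 CPM. Of 9 tested genes that NRF2 controls, 1 was called with Dox, the heme oxygenase HMOX1, with a log2 fold change of -0.40 (SE 0.108, adjusted p 0.0155) that was -0.28 (adjusted p 0.201) without SMARCB1 DMSO replicate 1 and -0.36 (adjusted p 0.086) without SMARCB1 Dox replicate 2.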

How the data were processed

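Total RNA of 8 libraries was analysed, 2 for each of the 4 groups given by the labels. The deposited values are raw read counts per gene, made by the authors with STAR (hg38, per the labels) and HTSeq, which counted reads inside GENCODE exons and left out reads shared between genes; tool versions and the strand setting are not given in the sources used here, and the labels and methods name different library kits. Of the deposited identifiers, 62625 of 69215 (90.5%) were matched to symbols in GENCODE v44 (hg38), which also gave exon lengths and positions, and the 5 entries that name no gene (27% to 29.3% of reads) were left out.

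Genes were filtered with filterByExpr, which kept 15931, scaled by TMM and fitted in 1 model of all 8 libraries with edgeR 4.0.16 (quasi-likelihood test, R 4.3.3, limma 3.58.1). p-values were adjusted by Benjamini-Hochberg over all tested genes in each comparison, and calls were made at 0.05. On simulated counts the procedure was checked before use. Alternatives were other scaling, no filter, DESeq2 1.42.0, a replicate block, the removal of a GC trend alone (chosen after seeing the data) or with the block, and leaving out each library in turn. The members, lists and tests were chosen with earlier results of these data known. Named were all members and, from other lists, up to 4 genes called with Dox in the SMARCB1 line that changed most. Standard deviations are over 2 libraries.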

Additional observations from a re-analysis of the deposited data

Results flagged for a closer look

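The effect of Dox differed between the SMARCB1 line and the GFP line, by the interaction term of the edgeR fit with Benjamini-Hochberg adjustment, for 3 of 32 members and for 8 genes of the other lists, against 4.71% of all genes tested. These 8 were 2 of 9 tested genes of pyruvate entry, 1 of 7 other transporters, 2 of 8 regulators and 3 of 16 hypoxia-inducible genes. None was called among the tested genes of the other lists. These were 10 other glycolysis genes, 6 other pentose phosphate genes, 7 of the serine and glycerol branches and 9 that NRF2 controls. Among the members the difference of the log2 fold changes (SMARCB1 minus GFP) was 0.63 for HK2 (adjusted p 0.00479), 0.62 for PFKFB3 (adjusted p 0.038) and 0.53 for HK1 (adjusted p 0.0404). Among enzymes and transporters of the other lists it was 1.46 for PDP1 (adjusted p 7.31e-05), -0.61 for PDP2 (adjusted p 0.00286) and 0.81 for SLC2A6 (adjusted p 0.0226). Among regulators it was 1.13 for EPAS1 (adjusted p 0.0262) and -0.54 for MYC (adjusted p 0.00898). The EPAS1 difference was 0.73 (adjusted p 0.202) without SMARCB1 Dox replicate 1, and its call was lost without 5 of the 8 libraries, each in turn. Among hypoxia-inducible genes it was 0.84 for CA12 (adjusted p 0.000504), 0.62 for BHLHE40 (adjusted p 0.0136) and 0.43 for BNIP3L (adjusted p 0.035). Of these 11, PDP1, PDP2 and CA12 were called under all 15 alternatives, and the other 8 lost the call in at least 1, always including the removal of a single library.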

How the results depend on the processing

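No called value changed direction under any alternative run. With Dox in the SMARCB1 line, 9 members were called, 14 (12 higher, 2 lower) when scaled to library totals, 7 (5 higher, 2 lower) with the GC trend removed, and 5 to 9 with 1 library left out, the fewest without SMARCB1 DMSO replicate 1. For the difference of the Dox effects 3 members were called, 1 with DESeq2, and 0 to 4 with 1 library left out, 0 without GFP DMSO replicate 2 and 1 without SMARCB1 Dox replicate 1 or either GFP Dox library. Between the derivatives 16 were called, and 9 to 12 with 1 library left out, the fewest without GFP DMSO replicate 1.

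Deviations from the group means correlated by 0.031 to 0.148 between same-numbered libraries, most for SMARCB1 DMSO with SMARCB1 Dox. Whether replicate numbers pair cultures is not stated, and these values do not settle it. A replicate block gave 13 called members with Dox in the SMARCB1 line, 6 for the difference (also 6 with the GC trend removed) and 18 between the derivatives. Over all genes the difference gave 750 calls, 1282 with the block and 1216 with block and GC removal.

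Over all genes, leaving out 1 library gave 1284 to 2009 calls in place of 2234 with Dox in the SMARCB1 line, 1284 without SMARCB1 Dox replicate 1 and 1462 without DMSO replicate 1, and 390 to 805 for the difference. The GFP line gave 0 calls, and 1 with no filter. With library totals in place of TMM, 1986 genes were higher and 497 lower with Dox in the SMARCB1 line (1327 and 907 with TMM), as were 670 and 159 for the difference (489 and 261), and 1732 and 3658 between the derivatives (2600 and 2505), where it moved the median of all genes to -0.10. Of 1184 values of the members under the alternatives, called or not, 78 changed sign, each without a call in either fit. At 2 libraries per group, the log2 differences of ENO1 and PKM (both 0.22) passed or missed the threshold by setting. So did those of PFKP and TKT with Dox in the SMARCB1 line, called with library totals and with a replicate block. PFKL was called with library totals.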
